A study of Medicago ruthenica with 3 samples.

Results

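The transcripts described here encode the ubiquitin ligases, the F-box proteins, the proteasome and their partners in leaves of Medicago ruthenica, a forage legume of dry grassland. They were chosen from the degradome result table by their annotation, which had to hold the word ubiquitin, proteasome, F-box, U-box, RING finger, RING-H2 or cullin. Transcripts with the symbol SINAT3 or At1g15670 were added, and the auxin receptors AFB2 and TIR1 were left out. The rule found 245 of the 6912 transcripts in the table, and reads were summed over all entries of a transcript. A total of 219 of the 245 carried a gene symbol, and the symbol and the annotation of a transcript did not always name the same gene.

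The study set rewatered plants (RW) and plants under drought stress (DS) against watered control plants (CK), all grown 8 to a pot. Seedlings were 4 weeks old when they were divided into these groups. RW plants were denied water like the DS plants, watered again on day 15 and sampled 2 days later. DS plants were sampled on day 15 without water at a soil moisture of 20%. CK plants were kept above 80% and sampled on the same day as DS plants. Rewatering and the later sampling day of RW cannot be told apart. The table held 1 degradome library per condition, so no value below has a replicate, and each test compares 2 libraries, not 2 conditions. Whether RNA of several plants was pooled for a library was not given in the sources used here. Transcripts whose annotation names leaf photosynthesis were among the reads of all 3 libraries, with 20 of 23 such transcripts listed in RW, 18 in DS and 16 in CK.

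Plants mark proteins for destruction with ubiquitin, a small protein that is activated by an E1 enzyme, passed to an E2 enzyme and placed on the target by an E3 ligase. RING and U-box ligases bring the E2 to the target directly, whereas an F-box protein is the exchangeable part of a larger ligase built on a cullin and a SKP1 protein, and chooses what that ligase binds. The 26S proteasome, a barrel-shaped 20S core with a 19S cap, then takes the marked protein apart, and deubiquitinases remove the mark. In drought this system is known for setting the level of proteins of the abscisic acid pathway, and several F-box and E2 transcripts are cut in other plants by conserved miRNAs.

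Degradome sequencing reads the 5′ ends of uncapped, cut transcripts. Each entry of the table pairs a transcript with a small RNA whose predicted site lies at such an end, and gives the reads of the 3 libraries there. Values are RPM, reads scaled to 1000000 reads of the table, and 1 read was worth 33.8 RPM in RW, 30.6 RPM in DS and 40.3 RPM in CK. All values were whole multiples of these steps, so whole reads are given below, together with 95% exact intervals that cover counting error only, since PCR copies were not told apart. Whether the listed small RNA made a cut was not tested, and without transcript levels a transcript that was cut more and one that was more abundant cannot be told apart. In bulk leaf RNA, fewer cells of a type and less RNA per cell cannot be told apart either.

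The member with the most reads, the F-box protein At3g06240, was listed mainly with PC-3p-54_81480, a small RNA that the study predicted from its own reads and for which it designed a qRT-PCR primer. That primer is shown because it is the one designed sequence for a small RNA of a leading member, 5′ to 3′. It is not the mature small RNA.
PC-3p-54_81480 primer: ccgcgggatcggagattagagaat

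The ubiquitin system took a small share of the cut ends, and that share was higher in the RW library than in the other two. Member transcripts held 607 of 29617 reads in RW (2.05%, 1.89 to 2.22%), 562 of 32719 in DS (1.72%, 1.58 to 1.86%) and 398 of 24790 in CK (1.61%, 1.45 to 1.77%). The summed RPM ratio was 1.07 for DS vs CK (0.94 to 1.22), 1.19 for RW vs DS (1.06 to 1.34) and 1.28 for RW vs CK (1.12 to 1.45), so the interval of the first held 1 and those of the others did not. This depended on the scaling. With each library scaled to its mapped reads in place of the table total, DS vs CK was 1.55 (1.36 to 1.77) and RW vs CK 1.97 (1.73 to 2.24), so no interval held 1, and with no scaling it was the RW vs DS interval that did (1.08, 0.96 to 1.21). More members were listed in RW, 170 against 150 in DS and 117 in CK. The whole table had the same order, with 4486 transcripts listed in RW, 4219 in DS and 3590 in CK.

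Reads were thin for most members. The median member had 3 reads over the 3 libraries, as did the median transcript of the whole table, and 72 members had 1 read. A total of 60 members were listed in all 3 libraries and carried 61.6% of the members' reads, 72 were listed in 2 libraries and 113 in 1. Of the last, 56 were found in RW alone, 36 in DS alone and 21 in CK alone. Transcripts of the whole table were likewise listed most in RW and least in CK. Their counts in 1 library alone were not made, so the member counts are a description. At least 10 reads were reached by 47 members (19.2%), against 19.5% of all transcripts. Read counts were not adjusted for transcript length, so their order says how much data a transcript had, not how strongly it was cut.

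By class, the balance between F-box proteins and RING-type ligases differed between the libraries. The 77 RING-type and other E3 ligases held 31.8% of the members' reads in RW (28.1 to 35.7%) and 30.4% in DS (26.7 to 34.4%), against 18.6% in CK (14.9 to 22.8%). The 72 F-box proteins held 29.0% in RW (25.4 to 32.8%) and 27.6% in DS (23.9 to 31.5%), against 38.4% in CK (33.6 to 43.4%). F-box reads were ahead of RING-type reads in CK, whereas in RW and DS the intervals of the 2 classes overlapped. The 25 U-box ligases held 15.7% in RW, 19.2% in DS and 12.1% in CK, and the 18 proteasome transcripts held 7.41% in RW, 9.25% in DS and 10.8% in CK. These shares do not depend on how the libraries are scaled, but F-box reads in CK held 30 reads of At3g06240 and 33 of CPR1. The higher F-box share in CK thus rested in part on these transcripts. Without At3g06240 that share was 33.4%, and the share without CPR1 was not computed.

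**Figure D1:**
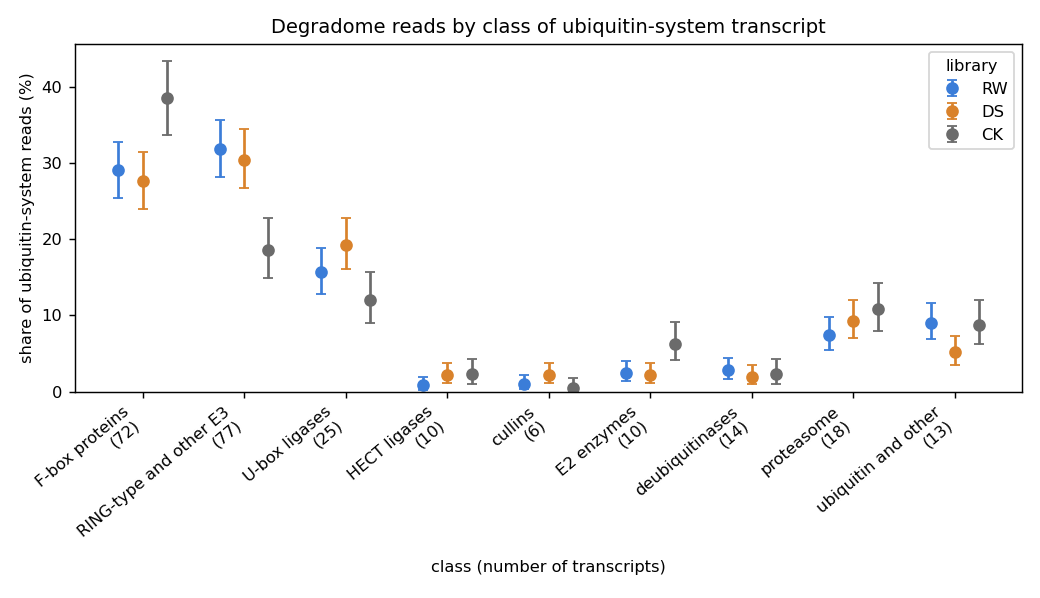
Share of the ubiquitin-system reads of each library (y axis, percent) in each class (x axis, with the number of transcripts), as points with exact 95% intervals, for RW, DS and CK with 1 library each. RING-type and other E3 ligases sit near 30% in RW and DS and at 18.6% in CK, and F-box proteins stand at 38.4% in CK.

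As summed RPM, relative to the table total, the RING-type class was higher in the RW and DS libraries than in the CK library. The ratio was 1.75 for DS vs CK (1.33 to 2.33) and 2.18 for RW vs CK (1.66 to 2.89), and without SINAT3, its member with the most reads, it was 1.74 and 1.99. The U-box class followed with 1.71 (1.20 to 2.45) and 1.66 (1.16 to 2.40). Proteasome reads gave 0.92 for DS vs CK (0.60 to 1.41) and 0.88 for RW vs CK (0.56 to 1.36), with intervals on both sides of 1. The F-box sum was 0.77 for DS vs CK (0.61 to 0.97), but without At3g06240 it was 0.80 with an interval up to 1.03. The F-box class had 155 reads in DS and 153 in CK, so its lower ratio rested on the scaling to the table total. For F-box proteins not annotated with kelch, leucine-rich, FBD or RNI repeats the ratio was 0.76 (0.55 to 1.05), and 1.08 without CPR1 (0.73 to 1.60). Class ratios under other scalings were not computed. Between RW and DS, the RING-type ratio was 1.25 (1.01 to 1.54), and 1.14 without SINAT3 (0.92 to 1.43).

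Counted by transcript, 45 of the 72 RING-type members with reads in RW or CK had the higher RPM in RW (62.5%), and so had 19 of 22 U-box members (86.4%), 34 of 56 F-box members (60.7%) and 7 of 15 proteasome members (46.7%). Over all transcripts of the table that figure was 56.8%. For DS vs CK it was 62.1% of RING-type, 66.7% of U-box, 57.1% of F-box and 50.0% of proteasome members, against 54.5% of all transcripts. Many of these transcripts had a single read, and the figures are a description.

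Each transcript with at least 10 reads over 2 libraries was tested with the two-sided exact binomial test on the reads of the pair, adjusted by Benjamini-Hochberg over all tested transcripts at a threshold of 0.05. For DS vs CK, 20 members were tested, of which 1 was higher and 3 were lower in DS (20.0% in all), against 20.2% of all 928 tested transcripts (11.0% higher and 9.16% lower). For RW vs DS, 31 were tested, and 3 were higher and 0 lower in RW (9.68% in all), against 18.4% of 1045 (9.95% higher and 8.42% lower). For RW vs CK, 25 were tested, with 2 higher and 1 lower in RW, against 13.3% of 893 (7.05% higher and 6.27% lower). Members were called no more often than the table as a whole. Their median log2 ratio (1 read added to each library) was 0.01 for DS vs CK, -0.05 for RW vs DS and -0.03 for RW vs CK, against 0.09, 0.07 and 0.11 for all tested transcripts. In all, 7 members were called in at least 1 comparison, 39 were tested in at least 1 and 206 in none. The matching count over all transcripts was not made, so these numbers are a description. A beta-binomial test with 1 spread for all transcripts called 0 members in each comparison, with 1, 1 and 3 below an unadjusted p of 0.05, but over the whole table it called 0, 0 and 1 transcripts, so it does not set the members apart.

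**Figure D2:**
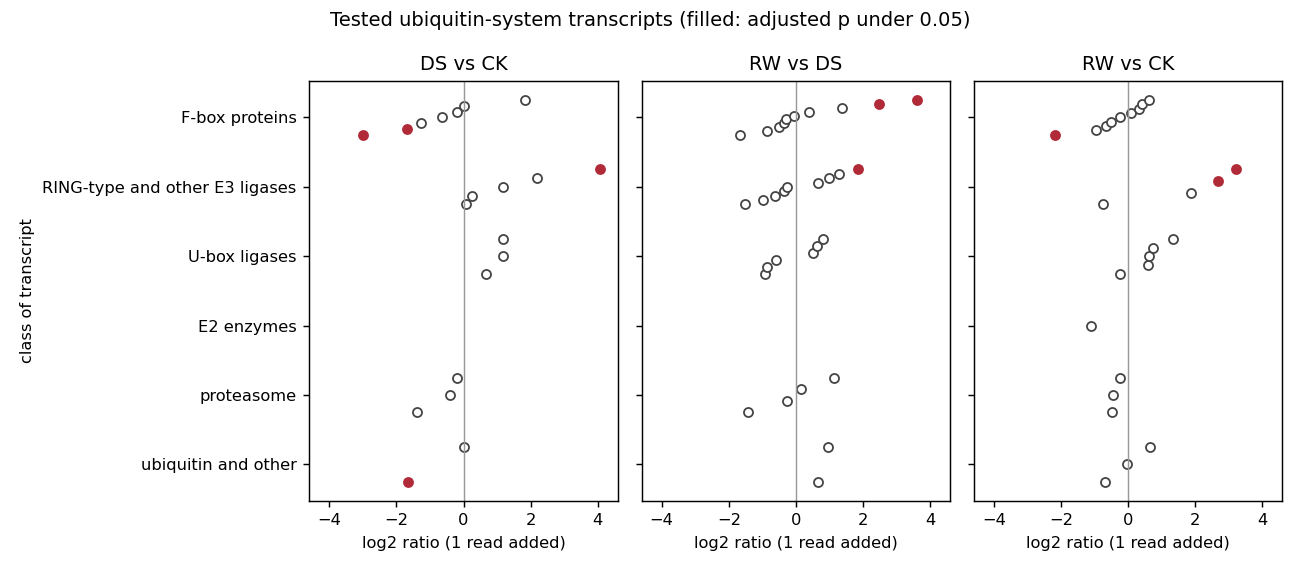
Log2 ratio of each tested ubiquitin-system transcript (x axis, 1 read added to each library) by class (y axis), with a panel for each comparison; filled points had an adjusted p under 0.05 in the exact binomial test. Calls lie among F-box proteins, RING-type ligases and 1 DSK2A transcript, and no U-box or proteasome transcript was called.

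Among the F-box proteins, 14 of 72 had at least 10 reads. At3g06240, a kelch-repeat F-box protein whose substrate is not given by its annotation, had 18 reads in RW, 25 in DS and 30 in CK, all but 2 of the CK reads with PC-3p-54_81480. It was lowest in RW, but no comparison was called, and RW vs CK gave 0.50 (0.26 to 0.93, exact binomial test, adjusted p = 0.11). Another kelch-repeat protein, annotated as At1g23390, had 23 reads in RW, 19 in DS and 14 in CK, spread over 3 small RNAs. Its libraries differed by less than counting error in every pair, with adjusted p between 0.59 and 1 in the exact binomial test.

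CPR1, known in Arabidopsis as the F-box protein that limits the level of immune receptors, was higher in CK than in both other libraries. It had 8 reads in RW (270.1 RPM), 13 in DS (397.3 RPM) and 33 in CK (1331 RPM), all in 1 entry with gma-miR1509a_R-3_1ss8AC. The CK library was far above the other two, which lay close together. The ratio was 0.30 for DS vs CK (0.14 to 0.58, exact binomial test, adjusted p = 0.0014), 0.68 for RW vs DS (0.24 to 1.77) and 0.20 for RW vs CK (0.08 to 0.45, adjusted p = 0.00018). The same small RNA was listed with 1 further member, the proteasome subunit PAE1, which had 5 reads in RW, 7 in DS and 6 in CK. At that transcript the 3 libraries were alike within counting error, with a DS vs CK ratio of 0.88 (0.25 to 3.18).

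The kelch-repeat F-box proteins with the symbol At1g15670, of a family known in Arabidopsis for the turnover of cytokinin response regulators and of phenylalanine ammonia-lyase, were low in DS. One transcript had 9 reads in RW (303.9 RPM), 1 in DS (30.6 RPM) and 11 in CK (443.7 RPM), all with nta-miR482a_R-3_1ss19CT. It was lower in DS than in CK (ratio 0.07, 0.0016 to 0.47, exact binomial test, adjusted p = 0.006) and higher in RW than in DS (9.94, 1.38 to 436, adjusted p = 0.048). RW and CK did not differ beyond counting error (0.68, 0.25 to 1.82). The call for RW vs DS rested on few reads and was lost with the median of ratios as scaling (ratio 9.13, exact binomial test, adjusted p = 0.058) and with no scaling (ratio 9, adjusted p = 0.091), among others, while the ratio stayed about as large. The second transcript, annotated as the close relative At2g44130, had 10 reads in RW, 0 in DS and 5 in CK, of which 9 in RW and all in CK were listed with ppe-MIR169i-p5_2ss17GT19TG. It was higher in RW than in DS (exact binomial test, adjusted p = 0.0058), 3.68-fold with 0 reads set to a floor of 3 per library. The exact interval, taken with the 0 reads of DS left as they were, began at 2.48 and had no upper end. DS vs CK had too few reads for a test. Summed over both, the symbol had 19 reads in RW, 1 in DS and 16 in CK. At1g80440 of the same family had 2 reads in RW and none elsewhere. The call for the transcript annotated as At2g44130 rested on ppe-MIR169i-p5_2ss17GT19TG, and without it too few reads were left to test.

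FBX6 and At3g27150 are textbook miRNA targets in Arabidopsis. FBX6, the leaf curling F-box protein cut under miR394, had 13 reads in RW, 5 in DS and 10 in CK, of which 12, 4 and 9 were listed with gma-miR394a-5p_L+1. It was lowest in DS without a call, at 0.38 for DS vs CK (0.10 to 1.22) and 2.87 for RW vs DS (0.96 to 10.3). At3g27150, a kelch-repeat protein paired with miR2111, had 5 reads in RW, 1 in DS and 7 in CK, all with aly-miR2111a-5p_1ss19TG. It had too few reads for a test of DS against either neighbour, and RW vs CK was not called (0.60, 0.15 to 2.19). MAX2A, the F-box protein of strigolactone and karrikin signalling, likewise had 8 reads in RW, 0 in DS and 5 in CK. Low DS values were thus seen for these F-box transcripts but not for the class by count. Of 56 F-box members with reads in DS or CK, 32 had the higher RPM in DS (57.1%), against 54.5% of all transcripts. Among those 32, At2g27310 had 3 reads in RW, 13 in DS and 2 in CK and no call (exact binomial test, adjusted p = 0.08 for DS vs CK). FBL8 had 3, 7 and 2 reads in the same order.

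Hormone and light receptors or partners among the F-box proteins had few reads. GID2, which carries gibberellin signalling by removing DELLA proteins, had 4 reads in RW, 1 in DS and 4 in CK. EDL2, a relative of the phytochrome A partner EID1, had 6 reads in RW, 7 in DS and 6 in CK and was close to even, while EID1 had 0, 2 and 1 reads in the same order. Tubby-like F-box proteins were led by TULP5 with 7 reads in RW, 2 in DS and 1 in CK. By type, the 20 kelch-repeat proteins held 80 reads in RW, 61 in DS and 69 in CK, the 11 proteins with leucine-rich or FBD repeats 9, 14 and 4, and the other 41 held 87, 80 and 80. The kelch-repeat sum was lower in DS than in CK at 0.67 (0.47 to 0.96), an interval that reached 1.13 without At3g06240.

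**Figure D3:**
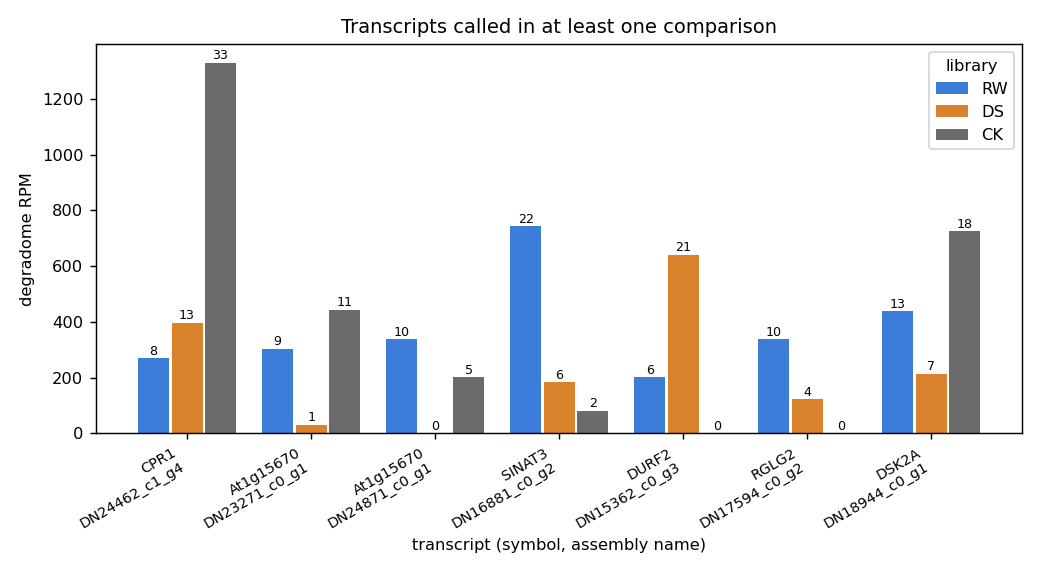
Degradome RPM (y axis) in RW, DS and CK, 1 library each, for the 7 ubiquitin-system transcripts called in at least 1 comparison (x axis); the number above a bar is its reads. CPR1 and DSK2A are highest in CK, SINAT3 and RGLG2 in RW and DURF2 in DS, and both At1g15670 transcripts are lowest in DS.

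In the RING-type class, 1 of 5 tested transcripts was called for DS vs CK, 1 of 9 for RW vs DS and 2 of 4 for RW vs CK, against 20.2%, 18.4% and 13.3% of all transcripts, and these calls fell on 3 transcripts. SINAT3, annotated as SINAT5 and of a family that in Arabidopsis tags NAC1 and autophagy proteins for removal, had 22 reads in RW (742.8 RPM), 6 in DS (183.4 RPM) and 2 in CK (80.7 RPM). RW stood well above the other two libraries. The ratio was 4.05 for RW vs DS (1.59 to 12.2, exact binomial test, adjusted p = 0.009) and 9.21 for RW vs CK (2.26 to 80.8, adjusted p = 0.0026). All of these reads were listed with nta-miR482a_R-3_1ss19CT, as were those of the first At1g15670 transcript, although the 2 transcripts differed in CK. A second transcript with this symbol had 1 read in RW and 1 in CK.

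DURF2, annotated as RDUF2, is a RING ligase that in Arabidopsis takes part in the response to abscisic acid and drought. It had 6 reads in RW (202.6 RPM), 21 in DS (641.8 RPM) and 0 in CK. DS was highest, and 5.30-fold above CK with the floor of 3 reads (exact binomial test, adjusted p = 0.00013). The exact interval, taken with the 0 reads of CK left as they were, began at 3.9 and had no upper end. RW vs DS gave 0.32 (0.10 to 0.81) and missed the threshold (exact binomial test, adjusted p = 0.055), but it was called with no scaling (adjusted p = 0.038), with the median of ratios as scaling (0.036) and with only the deepest entry (0.039). Of the DS reads, 15 were listed with ppe-MIR169i-p5_2ss17GT19TG and 6 with mtr-miR396a-3p_L-1, and of the RW reads 3 with each. Without the first of these small RNAs too few reads were left to test.

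RGLG2, annotated as RGLG5 and of a ligase family that in Arabidopsis acts on a drought-response transcription factor and on phosphatases of the abscisic acid pathway, had 10 reads in RW, 4 in DS and 0 in CK. RW was 2.79-fold above CK with the floor of 3 reads (exact binomial test, adjusted p = 0.027). With the 0 reads of CK left as they were, the exact interval began at 1.88 and had no upper end. RW vs DS was not called at 2.76 (0.80 to 12.1). All RW reads were listed with mtr-miR5261, and the DS reads were split evenly between it and mtr-miR396a-5p. A second transcript with the symbol RGLG2 had 1 read in RW and none elsewhere. KEG, the ligase that removes the abscisic acid response factor ABI5, had 12 reads in RW, 8 in DS and 2 in CK, over 6 small RNAs. It was also lowest in CK, at 5.02 for RW vs CK (1.12 to 46.2, exact binomial test, adjusted p = 0.14) without a call.

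Of the RING-H2 proteins of the ATL family, which sit in membranes and several of which answer to pathogen elicitors, ATL65 had 4 reads in RW, 10 in DS and 6 in CK and ATL2 had 6, 11 and 1 in the same order. Both were highest in DS and neither was called, with 8.33 for ATL2 in DS vs CK (1.21 to 359, exact binomial test, adjusted p = 0.074). COP1, the ligase that represses light responses, had 0 reads in RW, 5 in DS and 3 in CK. SUD1, linked to cuticle wax formation, had 7 reads in RW, 2 in DS and 0 in CK, and the listerin homologue At5g58410, which serves stalled ribosomes, had 7, 1 and 0. The transcripts At3g63550 (8 reads in RW, 4 in DS and 0 in CK) and RHC1A (8, 1 and 1) were both listed mainly with mtr-MIR2603-p3_2ss9AC17AC. That small RNA was paired with 6 members and had 26 of their reads in RW, 13 in DS and 2 in CK, lowest in CK.

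No U-box ligase was called among the 3 tested for DS vs CK, the 6 for RW vs DS and the 5 for RW vs CK, and so few tests would give about 1 call or fewer at the shares of all transcripts. The leading PUB14 transcript, whose annotation names U-box protein 4, had 19 reads in RW, 32 in DS and 10 in CK. DS was highest, with 2.42 for DS vs CK (1.16 to 5.53, exact binomial test, adjusted p = 0.057). Its reads came from 7 small RNAs, and these changed with the library: gma-MIR1527-p3_2ss2CT22TA had 6 reads in RW, 12 in DS and 3 in CK, PC-3p-39042_145 had 1, 10 and 0, and gma-MIR1527-p3_2ss1CT21TA had 9, 0 and 0. With mapped reads as scaling, the leading PUB14 transcript was called for DS vs CK at 3.52 (exact binomial test, adjusted p = 0.0021). A second transcript with this symbol had 7 reads in RW, 4 in DS and 3 in CK. It was highest in RW, without a call, and had too few reads for a test of DS vs CK.

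PUB38 had 10 reads in RW, 22 in DS and 10 in CK, and PUB16 had 5, 11 and 3, so that the sums of both were highest in DS. DS vs CK was 1.67 for PUB38 (0.76 to 3.94) and 2.78 for PUB16 (0.73 to 15.5), neither called. PUB38 drew on 7 small RNAs, and with only its deepest entry DS vs CK turned to 0.49 (0.08 to 2.52). PUB13, a ligase that in Arabidopsis takes part in the turnover of the flagellin receptor, had 8 reads in RW, 6 in DS and 2 in CK. PUB50 had 8 reads in RW, 0 in DS and 4 in CK. Some U-box transcripts were listed in 1 library alone, such as PUB21 with 9 reads in DS, the transcript annotated as U-box protein 1 with 8 in DS and PUB5 with 6 in RW.

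HECT ligases and the cullin class had few reads at this depth. The 10 HECT transcripts held 5 reads in RW, 12 in DS and 9 in CK, of which HERC2 gave 0, 8 and 1. The 6 transcripts of the cullin class held 6 reads in RW, 12 in DS and 2 in CK, and the CUL3A transcripts gave 1 of the RW reads and 9 of the DS reads. CUL1, the cullin of the F-box ligases, had 4 reads in RW, 2 in DS and 2 in CK over 2 transcripts, 1 of which is annotated as cullin 3B. No transcript of these classes had enough reads for a test.

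Beside the F-box class, E2 enzymes were the only class whose DS vs CK ratio of summed RPM had an interval below 1. The 10 transcripts held 15 reads in RW, 12 in DS and 25 in CK, and DS vs CK was 0.36 (0.17 to 0.75). Without UBC22, which had 4 reads in RW, 1 in DS and 8 in CK, the ratio was 0.49 with an interval up to 1.11. UBC38 had 1 read in RW, 5 in DS and 4 in CK. UBC24, the E2 known as PHO2 that is cut under miR399 when phosphate is short, had 1 read in RW, 2 in DS and 2 in CK, all with mtr-miR399l. The 14 deubiquitinases held 17 reads in RW, 11 in DS and 9 in CK, with at most 6 reads for any of them.

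The shuttle receptors that carry ubiquitinated proteins to the proteasome had more reads. The DSK2A transcript annotated as DSK2b had 13 reads in RW (438.9 RPM), 7 in DS (213.9 RPM) and 18 in CK (726.1 RPM). It was lower in DS than in CK at 0.29 (0.10 to 0.74, exact binomial test, adjusted p = 0.026), and RW lay between them without a call against either. Of its reads, 11 in RW, 6 in DS and 15 in CK were listed with ath-miR8175_L-2_1ss12AG. With libraries scaled to mapped reads the call was lost (0.43, exact binomial test, adjusted p = 0.16), as it was with only its deepest entry (adjusted p = 0.059). Its neighbour in the assembly, annotated as DSK2a, had 16 reads in RW, 11 in DS and 8 in CK, with a DS vs CK ratio of 1.04 (0.38 to 2.98). The RAD23C transcript annotated as RAD23d had 6 reads in RW, 1 in DS and 5 in CK, and the one annotated as RAD23c had 2, 1 and 0. A polyubiquitin transcript, UBI11, had 8 reads in RW and none in DS or CK. Taken as a class, ubiquitin, its relatives and its receptors held 55 reads in RW, 29 in DS and 35 in CK, and RW vs DS was 2.10 (1.31 to 3.41).

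The proteasome sums were close to even, with 45 reads in RW, 52 in DS and 43 in CK. The 11 transcripts of the 19S cap held 31, 33 and 21 of these, the 5 of the 20S core 14, 15 and 19, and an assembly chaperone and an activator the rest. None of the 3 proteasome transcripts tested for DS vs CK was called (1 below an unadjusted p of 0.05), nor any of the 4 for RW vs DS or the 3 for RW vs CK (0 below it in both). Of all tested transcripts, 20.2%, 18.4% and 13.3% were called in the same order. So few tests cannot set the proteasome apart from the table.

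The cap subunit 21D7, known as RPN3, had 11 reads in RW, 5 in DS and 11 in CK. It was lowest in DS, at 0.34 for DS vs CK (0.09 to 1.07, exact binomial test, adjusted p = 0.15). The entries behind these reads differed in part: nta-miR482a_R-3_1ss19CT had 4 reads in RW, 3 in DS and 11 in CK, and PC-3p-78936_58 had 7 in RW alone. A second transcript with the symbol 21D7 had 1 read in DS and none elsewhere. TBP1, an ATPase of the cap, had 7 reads in RW, 7 in DS and 1 in CK, and the cap scaffold RPN1A had 2, 8 and 0. In the core, PBB2 had 6 reads in RW, 1 in DS and 7 in CK, and PAC1 had 0, 5 and 5. The lowest library thus differed between these subunits while the class sums were close to even. None of these subunits was called and their reads were few, so a difference between them was not shown.

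The members' reads were spread over 151 small RNAs in 390 of the 11390 entries. The small RNA with the most entries in the table, ppe-MIR169i-p5_2ss17GT19TG, was listed with 58 members and held 12.6% of their reads, against 18.3% of the reads of all transcripts. By library it held 13.7% of the members' reads in RW, 14.8% in DS and 7.79% in CK. nta-miR482a_R-3_1ss19CT, listed with 15 members including SINAT3, At1g15670 and 21D7, had 48 of their reads in RW, 22 in DS and 30 in CK. It was thus not one-sided across its targets, since CK was lowest at SINAT3 and highest at 21D7.

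Partners of the ubiquitin system that the annotation rule does not reach were described from a separate list of 39 transcripts (SKP1 proteins, COP9 signalosome, NEDD8, BTB adaptors, anaphase-promoting complex, CDC48 and autophagy). Of these, 7 had at least 10 reads. Of those tested, 1 of 4 was lower for DS vs CK (20.2% of all transcripts were called there), 2 of 5 were higher for RW vs DS (18.4%) and 1 of 4 was higher for RW vs CK (13.3%), numbers too small to set the list apart. CDC48, the ATPase that pulls ubiquitinated proteins out of complexes, had 79 reads in RW, 41 in DS and 54 in CK at its leading transcript, annotated as homolog D. There DS was lower than CK at 0.58 (0.37 to 0.88, exact binomial test, adjusted p = 0.047) and RW higher than DS at 2.13 (1.44 to 3.19, adjusted p = 0.0011). The other RW vs DS call was a CDC48 transcript too, with 22 reads in RW, 7 in DS and 13 in CK (exact binomial test, adjusted p = 0.017). A CDC48 transcript annotated as homolog E had 12 reads in RW, 17 in DS and 12 in CK and no call. SKP1A, the adaptor between cullin and F-box protein, had 12 reads in RW, 8 in DS and 0 in CK and was higher in RW than in CK (exact binomial test, adjusted p = 0.011).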

How the data were processed

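Degradome libraries of leaf RNA, 1 per condition, were sequenced in single 50-base reads. The authors processed them against their own transcript assembly with ACGT101-DEG, a program built around CleaveLand4, and deposited RPM values scaled to the reads of the result table. Aligner settings were not given in the sources used here. Each RPM value was divided by the value of 1 read, and 100% came out whole within 0.01 reads, giving 29617 reads in RW, 32719 in DS and 24790 in CK. Reads at a site shared by more than 1 small RNA may enter a sum repeatedly.

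Reads were summed per transcript. Transcripts with at least 10 reads in a pair of libraries were tested with the exact binomial test against the ratio of totals (scipy 1.17.1, Python 3.11.15), adjusted over all tested transcripts. The count test was checked on simulated reads. Shares have Clopper-Pearson intervals of 95%. The RPM scaling to the table total, made by the authors, hides changes of the whole table. Named transcripts were those called, the top 3 of each class by reads with at least 10 reads, textbook miRNA pairs and transcripts sharing a symbol with these; others named were chosen after their values were seen. Members and lists were chosen with earlier results of these data known.
Alternatives were other scalings (mapped reads, none, median of ratios), other ways to collapse entries, other minimum reads, a beta-binomial test and a fold rule.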

Additional observations from a re-analysis of the deposited data

How the results depend on the processing

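No paired analysis was possible because each condition had 1 library and shared no replicate with another, and for the same reason no library could be left out. The number of members called was 4 for DS vs CK, 3 for RW vs DS and 3 for RW vs CK. The beta-binomial test gave 0 in each, and a fold of at least 2 with no test 11, 13 and 6; over all transcripts the beta-binomial test gave 0, 0 and 1 and the fold rule 440 of 928, 437 of 1045 and 304 of 893. For RW vs DS, 6 of 76 tested members were called with at least 5 reads, against 174 of 1985 transcripts of the whole table. With no filter it was 1 of 224, against 117 of 6087. Without ppe-MIR169i-p5_2ss17GT19TG, an alternative chosen after the data were seen, it was 1 of 29, against 150 of 801. Scaling to mapped reads gave a summed ratio of 1.55 for DS vs CK and 1.97 for RW vs CK, and no scaling 1.41 and 1.53, so that the DS vs CK interval no longer held 1. Mapped-read scaling moved the median log2 ratio of all tested transcripts to 0.62, 0.16 and 0.73 in the same order of comparisons, and no scaling to 0.49, -0.07 and 0.36. With mapped reads, 4 members were higher and 2 lower for DS vs CK, where the table total gave 1 and 3, and of all transcripts 232 were higher and 54 lower, where it gave 102 and 85; for RW vs CK 204 of all transcripts were higher and 22 lower, where it gave 63 and 56. With only the deepest entry of each transcript, F-box proteins held 31.6% of the members' reads in DS and U-box ligases 12.9% in RW, 14.5% in DS and 7.84% in CK. F-box proteins held 33.4% in CK without the deepest member. The medians of the tested members stayed within their intervals in all 24 alternatives. For single transcripts, 20 results lost their call, 10 of them under the beta-binomial test, and 8 gained one; no called ratio changed direction. Of the ratios with no call, 9 moved outside their interval, 8 of them with only the deepest entry, where PUB38 turned to 0.49 for DS vs CK. At1g15670 (1 read in DS) lost its RW vs DS call with no scaling (exact binomial test, adjusted p = 0.091), and KEG gained one for RW vs CK with mapped reads (adjusted p = 0.012). The cause of these changes was not tested. Depth allowed a test for 39 of the 245 members.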
